A study of Danio rerio with 4 samples.

Results

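The genes described here are pan-leukocyte cytoskeleton and signalling genes, a set of 10 named genes of which 9 had a row among the 19143 genes of the unfiltered table, matched by gene symbol; the set itself was proposed with earlier results of these data known. RNA-seq measured polyadenylated transcripts in whole zebrafish larvae at 4 dpf. The libraries were 2 pools of *nlrc3l* st73 homozygous mutants, which carry both mutant copies of a NOD-like receptor gene, and 2 pools of siblings, a mix of heterozygous and wild-type larvae. Each genotype had 1 pool of 10 larvae and 1 pool of 12 larvae. The larvae had been sorted by neutral red, a dye taken up by microglia, so the mutant pools were picked for missing microglia and the sibling pools for normal ones. Per the study's methods for this staining, the larvae are kept in the dye together with PTU, which blocks pigment. The value analysed for each gene is the authors' mean over all 4 libraries of the count divided by a library size factor (mean normalized count). It joins both genotypes, so it gives neither a difference between mutants and siblings nor a spread between pools, and no member is described as higher or lower in either genotype.

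Leukocytes crawl, engulf and signal through an actin cytoskeleton that is rebuilt at the cell edge. The small GTPase Rac and the WASP proteins switch on actin branching by the Arp2/3 complex, while bundling and coat proteins such as L-plastin and coronin shape the filaments. Receptor phosphatases and Src family kinases set how strongly surface receptors start this response. Several of these proteins have a form found mainly in blood cells beside forms that most cells make.

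The actin genes of the set were read at very different depths. For *coro1a* (ENSDARG00000054610), which encodes the actin-binding protein coronin 1A, the authors' mean normalized count was 137, and 52.4% of the genes in the table had a lower value. For *lcp1* (ENSDARG00000023188), which encodes the actin bundler L-plastin, the authors' mean was 111, with 46.6% of genes lower. These values lie on either side of the median of the table, 126 normalized counts. The WASP gene *wasb* (ENSDARG00000026350) had a mean of 30.0 normalized counts, with 17.0% of genes lower. Its paralog *wasa*, the remaining gene of the set, had no row under that symbol and so could not be analysed here.

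*arhgdig* and the GTPase gene *rac2* were the most deeply read members. The authors' mean for *arhgdig* (ENSDARG00000004034) was 1056 normalized counts, above 93.4% of the genes in the table. This 1 gene held 59.3% of the 1782 normalized counts summed over the 9 members, so a sum over the set would mostly show *arhgdig*. The mean for *rac2* (ENSDARG00000038010), the Rac GTPase of blood cells in mammals, was 351 normalized counts, above 77.3% of genes.

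The remaining members encode a lysosomal protein, a kinase substrate, a kinase and a receptor phosphatase. All were under the table's first quartile of 45.5 normalized counts, as was *wasb*. *laptm5* (ENSDARG00000101785), which encodes a lysosomal membrane protein of blood cells, had a mean of 34.4 normalized counts. *plek* (ENSDARG00000104325), which encodes pleckstrin, a protein kinase C substrate of platelets and leukocytes, had 25.2. The Src family kinase gene *hck* (ENSDARG00000058647) had 20.0 normalized counts, and 10.1% of genes were lower. The lowest was *ptprc* (ENSDARG00000071437), which encodes the receptor phosphatase CD45 of leukocytes, at 17.6 normalized counts, with 8.15% of genes lower. Over the 4 libraries together this is 70.5 normalized counts for *ptprc*, against 4225 for *arhgdig*.

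Of the 9 members, 3 lay above the median of the table and 6 below it, and 5 of the 6 were under the first quartile. Together the 9 members took 0.0204% of the 8721330 normalized counts summed over all genes. Longer transcripts give more reads, and transcript lengths were not used here, so the order of these values is an order of reads and not of transcripts per cell. In bulk larvae a low value cannot tell few cells from little RNA per cell.

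**Figure D1:**
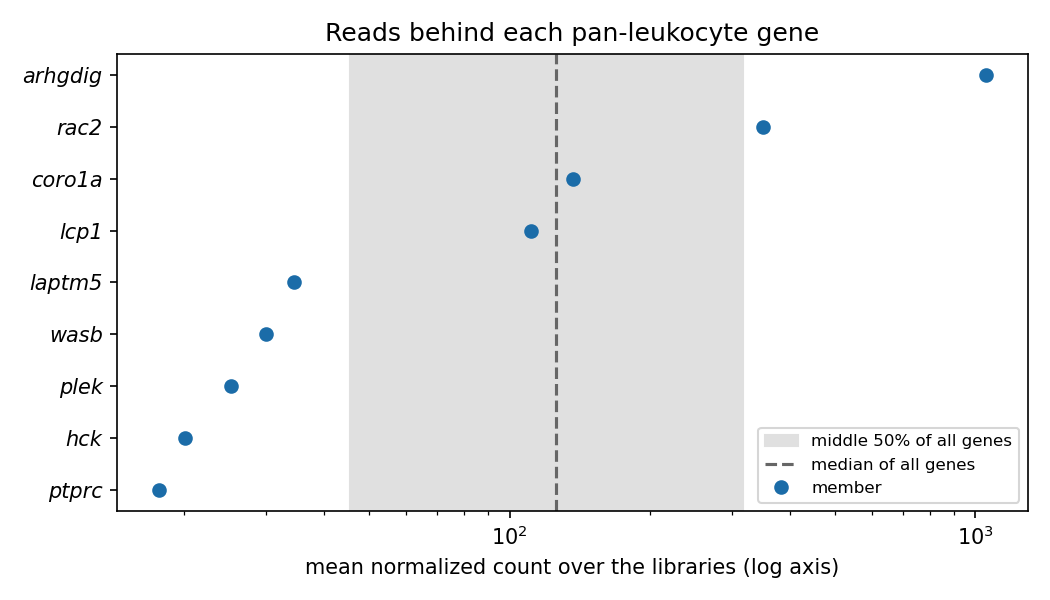
The mean normalized count over the 4 libraries (log axis) is plotted for each of the 9 members, 1 point per gene, with the middle 50% of all 19143 genes shaded and their median of 126 as a dashed line. *arhgdig* stands at 1056 and *ptprc* at 17.6, and 5 members lie left of the shaded range.

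Each member was set beside a fixed list of paralogs, which need not hold every paralog it has. A family here is a member and its listed paralogs. In 7 of 9 families every listed paralog with a row had more reads than the member, and 22 of 26 paralog rows did so over all families. The families of *plek* and *arhgdig* had 1 paralog row each. Listed paralogs of *arhgdig* and *hck* without a row could not be counted, and any of them may have had fewer reads than the member. For 5 members few of the genes with a row were lower, from 8.15% for *ptprc* to 19.5% for *laptm5*. For the rest this share ran from 46.6% for *lcp1* to 93.4% for *arhgdig*. The lowest value of any gene with a row was 9.18, so genes with fewer reads may be missing from these shares. The counts of paralogs thus partly restate the low place of many members among the genes with a row. These are read counts without a correction for length, and no test was possible on a single value per gene. For *lcp1* the plastin paralogs *pls3* and *pls1* had 1416 and 225 normalized counts, so *lcp1* held 6.35% of the family's reads. For *coro1a* the paralogs *coro1cb*, *coro1ca* and *coro1b* had 854, 742 and 656 normalized counts. For *wasb* the N-WASP genes *waslb* and *wasla* had 401 and 345 normalized counts.

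The 2 exceptions were the families of *rac2* and *ptprc*. *rac2* had fewer reads than *rac1a*, at 1050 normalized counts, and *rac3b*, at 669, but more than *rac3a*, at 329, *rac1b*, at 209, and *rac1l*, at 9.76. Rac proteins are close in sequence, and reads shared between their genes could have been split or dropped in counting, so the division of reads within this family is uncertain. *ptprc* had fewer reads than the receptor phosphatase genes *ptprk*, at 350, *ptpra*, at 224, and *ptprea*, at 116 normalized counts, and more than *ptprja*, at 12.5.

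The smallest shares of a family were those of *hck*, with 1.18%, and *laptm5*, with 1.89%. Among the Src family kinases *yes1* had 823 normalized counts and *fyna* 575. The kinase gene *lyn*, which is also made in blood cells, stands on 2 identifiers with 122 and 28.0 normalized counts, between which the counting may have split reads. Beside *laptm5*, the genes *laptm4a* and *laptm4b*, which encode related proteins of endosomes and lysosomes, had 1118 and 670 normalized counts. The largest share was that of *arhgdig*, at 34.7%, with *arhgdia* at 1989 normalized counts. *plek* held 20.8% beside *plek2* at 96.2 normalized counts. A share also depends on how many paralog rows were summed, which was 1 each for *arhgdig* and *plek* and 6 for *hck*. Rows existed for 1 of 2 listed paralogs of *arhgdig* and for 5 of 7 of *hck*. The shares are therefore not alike between families.

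**Figure D2:**
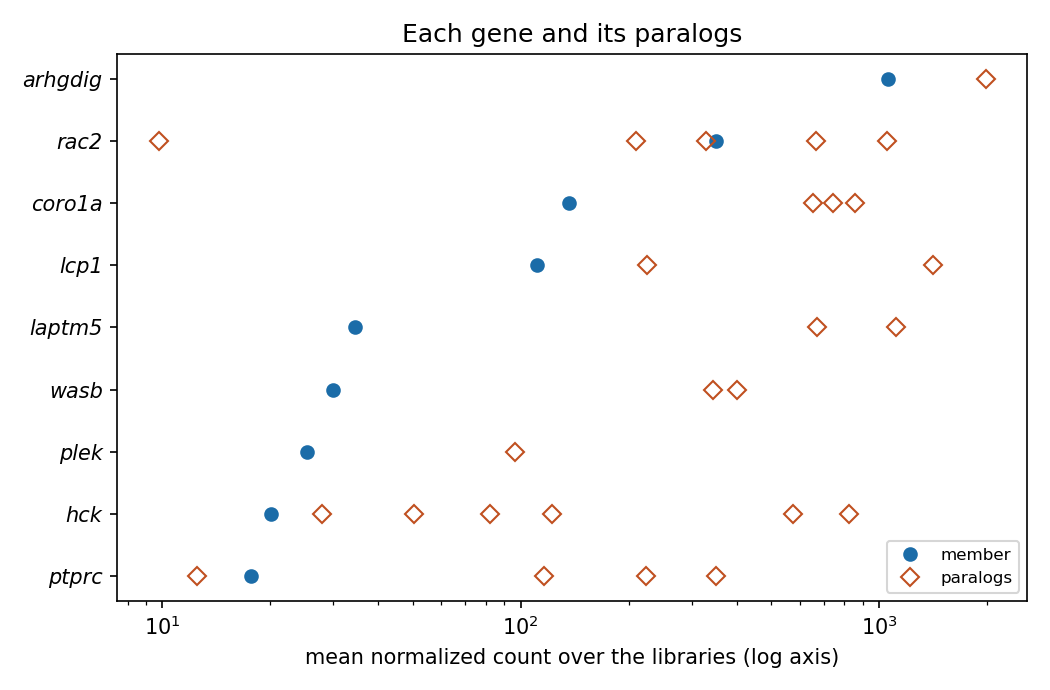
The mean normalized count over the 4 libraries (log axis) is plotted for each member (filled circles) and the rows of its paralogs (open diamonds), 1 line per family. Every listed paralog with a row lies right of the member in 7 of 9 families, and *rac2* and *ptprc* have paralogs on both sides.

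Genes for the proteins that the members act with were read over a wide range too. Genes of the Arp2/3 complex and its activation, which branches actin filaments in most cells, had rows for 12 of 13 listed names, with a median of 841 normalized counts and a range of 111 to 2060. Only *actr2b*, at the low end, was under the median of the table. The actin genes *actb2* and *actb1* had 51156 and 42933 normalized counts. Genes of leukocyte signalling had rows for 8 of 11 listed names, with a median of 68.6, and 6 of the 8 lay under the median of the table. Of all 8, the cortactin-like *hcls1* was the highest, at 252, and the adaptor *lcp2a* the lowest, at 14.4 normalized counts. Listed partners without a row may have had fewer reads, which could lower these medians and low ends.

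Markers of blood lineages, fixed as lists, were read over ranges that overlap for some lists and not for others. The macrophage range, for example, lay wholly below the neutrophil and erythroid ranges. All ranges come from means over mutant and sibling pools together, and none could be had for either genotype alone. All 5 neutrophil list genes had a row, with the myeloperoxidase gene *mpx* at 186 normalized counts. Without *cpa5*, at 1051, that list ran from *ncf1* at 57.5 to the lysozyme gene *lyz* at 246. Whether *cpa5* marks neutrophils was not tested here, and it stands among them only because the fixed list names it. The 5 macrophage markers ran from *cd74a* at 9.83 to *mpeg1.1*, a perforin-like gene of macrophages, at 49.4 normalized counts. The lymphoid list had rows for 3 of 5 names, from the recombinase gene *rag1* at 13.4 to *ccr9a* at 36.3. The microglia list had rows for 4 of 5 names, from *havcr1* at 32.2 to *apoeb*, which other cells also make, at 7244 normalized counts. Only *fermt3b* and *gp1bb* of 4 thrombocyte markers had a row, at 11.4 and 9.66. Listed markers without a row may have had fewer reads, so the low ends of the lists that lack rows are uncertain. The erythroid list ran from *alas2* at 164 to *hbbe1.1* at 2953 normalized counts. In it the globin gene *hbae1.1* stands on separate identifiers with 357 and 304 normalized counts, between which the counting may have split reads.

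*laptm5*, *wasb*, *plek*, *hck* and *ptprc* had values inside the ranges of both the macrophage and the lymphoid lists. Of these, *laptm5* was inside the microglia range too. The macrophage range, 9.83 to 49.4, runs from near the lowest value of all genes, 9.18, to above the first quartile of 45.5. Most genes under that quartile thus fall inside it, so lying in the macrophage range says little about members already under the quartile. *coro1a* and *lcp1* lay inside the neutrophil range with or without *cpa5*, and also inside that of the microglia list. *rac2* was above every neutrophil list gene other than *cpa5*. *arhgdig*, at 1056, was above the same genes and nearly level with *cpa5*, at 1051 normalized counts. Both *rac2* and *arhgdig* also lay inside the erythroid and microglia ranges. The microglia range, 32.2 to 7244, starts below the table's first quartile of 45.5 and ends above its upper quartile of 317. Most genes of the table thus fall inside it, so lying in the microglia range says little about any member. The share of all genes inside the lymphoid, neutrophil and erythroid ranges was not counted. These overlaps assign no member to a lineage, and which cells of the larva made the transcripts was not tested.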

How the data were processed

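Reads were made from 4 libraries of pooled whole larvae, prepared with a stranded poly(A) kit. The authors trimmed paired-end reads with Trimmomatic and aligned them with HISAT2. The submitters' processing notes name featureCounts, Subread 1.5.2, DESeq2, R 3.3.1 and the build GRCz10. The only value analysed was the authors' deposited baseMean, a signal: each library's count was scaled by its DESeq2 size factor by the authors, and the 4 scaled values were averaged. The other 5 columns of measurements hold the authors' own comparison of the genotypes (fold change, its error, statistic and p-values). They were not used, nor was the shorter table of genes selected by it. Per-library depth, spread between pools and any test of genotype are therefore not given, and no interval can be had. The lowest value in the table is 9.18, so low genes may have been left out upstream. Each share of genes with a lower value is a rank among genes with a row. It would be larger if genes left out as low were counted. The design held a genotype test for values per library, which could not be run, and levels per coding length, for which no lengths were used. Members and lists were chosen with earlier results of these data known. The genes named are the members, their listed paralogs and the listed markers and partners. Of the 9 members, 8 had identifiers whose symbol matched the reference table, and *wasb* stands there as *WAS*. The share of genes with a lower value was checked on simulated ranks. Python 3.11.15, numpy 2.4.6, pandas 2.3.3 and matplotlib 3.10.9 were used.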

Additional observations from a re-analysis of the deposited data

How the results depend on the processing

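The median member, *laptm5*, had a value above that of 19.5% of all genes in the table. Every gene of the table has a name, so ranking among named genes gave the same 19.5%. Among genes above the table's median the share was 54.6%, the middle of the 3 members left there, a shift that follows from using fewer genes and fewer members. Division by coding length was not run, and neither were the genotype test's other normalization, its filter on low values or the fits without each pool. No paired analysis was possible because the values analysed join all 4 libraries. With 1 mean per gene, depth limits most the 5 members at or under the 34.4 normalized counts of *laptm5*.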
